A study of Mus musculus with 10 samples.

Results

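The genes described here encode the MLL fusion protein partners and cofactors in mouse acute myeloid leukaemia driven by MLL-AF9. They are Kmt2a, Mllt1, Mllt3, Mllt10, Aff1, Aff4, Dot1l, Men1, Psip1 and Ell, chosen by name from what their proteins do and not by their values. All 10 had a probe set that carries their symbol alone, of 19938 genes represented in the same way, and all 10 passed the level filter that left 15662 genes for testing. Aff1 had a pair of such probe sets and the brighter one was used, while each of the other 9 genes had 1.

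RNA was measured on 10 microarrays, 1 for each treatment of 5 independent primary leukaemia lines, and the question was how deletion of the transcription factor gene Zfx alters expression in c-Kit-positive leukaemia cells. Lines 10949, 10950 and 10986 carried the conditional Zfx allele (Zfx fl/y, called fl here), and lines 10977 and 10980 carried wild-type Zfx (wt/y, called wt). All 5 lines carried the MLL-AF9 fusion and a Cre-ER transgene, a Cre recombinase that 4-hydroxytamoxifen (4-OHT) switches on. Cells came from moribund mice, grew for 72 h with 10 nM 4-OHT or with ethanol vehicle in medium with IL-3, IL-6 and SCF, and were then sorted for c-Kit. This gave the groups fl vehicle (n = 3 arrays), fl 4-OHT (n = 3), wt vehicle (n = 2) and wt 4-OHT (n = 2), with the line as the replicate. The wt lines serve as the control for 4-OHT and for active Cre. The sources used here do not state the promoter that drives Cre-ER, the age of the mice or the way the fusion was introduced. Each line is 1 leukaemia, so the replicates are 3 fl and 2 wt leukaemias. P-values for changes with 4-OHT rest on the spread of the changes among lines. Those between genotypes rest on the spread of arrays within groups, with arrays of the same line treated as correlated.

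MLL, the product of Kmt2a, is an H3K4 histone methyltransferase. In leukaemia its amino-terminal part, which binds menin (Men1) and through it LEDGF (Psip1), is joined to one of many partner proteins. The partners AF9 (Mllt3) and ENL (Mllt1) are close relatives with a YEATS domain that reads acylated histones. They recruit either the super elongation complex, built on AF4 (Aff1), AFF4 and ELL, or the H3K79 histone methyltransferase DOT1L with its cofactor AF10 (Mllt10). Both routes are known to keep HOXA genes and MEIS1 transcribed in these leukaemias.

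The values are log2 of the RMA signal. Median signals of the 10 arrays lay between 144.7 and 158.2. The vehicle array of line 10986 stood apart, with a mean correlation to the other arrays of 0.968 over all probe sets, against 0.982 to 0.988 for the other 9. The change with 4-OHT in that line had an SD of 0.497 over all genes tested, against 0.174 to 0.263 in the other lines. Of 8 leukaemia and progenitor markers, Hoxa9 stood at 10.88 to 11.82, Meis1 at 11.23 to 11.83 and Myb at 12.38 to 12.75. Kit, the gene of the sorted receptor, ran from 8.35 to 9.94, Hoxa10 from 8.47 to 9.47 and Cd34 from 8.41 to 12.33. Flt3 was lower, at 6.44 to 8.16, and Mecom lay near the level filter of 6.23, at 6.03 to 6.93. Zfx itself ran from 9.24 to 10.09 in fl cells given vehicle and from 9.98 to 10.07 in fl cells given 4-OHT (change 0.37, SE 0.16, limma adjusted p = 0.407). Where its probes lie relative to the deleted part is not stated in those sources, so this level checks neither the deletion nor the labels.

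No gene of the 10 passed the test in any comparison, and the largest contrast concerned Aff4. With 4-OHT, 8 of the 10 lay lower and 2 higher in the fl lines, with a median log2 change of -0.24, beside a median of 0.00 over all genes tested. Aff4, Kmt2a, Men1, Mllt1, Mllt10 and Ell were lower in each of the 3 fl lines, and Mllt3 was higher in each. Of all genes tested, 14.5% were lower and 14.6% higher in all 3 fl lines. With arrays centred on their median, 5 of the 10 rather than 6 were lower in all 3. Without line 10986 the median of the 10 was -0.15, with 8 lower and 2 higher. In limma, 0.153% of all genes passed in the fl lines and 0 of the 10 members did, and 2 of the 10, Aff4 and Kmt2a, had an unadjusted p under 0.05, as did 12.3% of all genes. In bulk RNA, fewer cells that express a gene and less RNA per cell cannot be told apart.

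**Figure D1:**
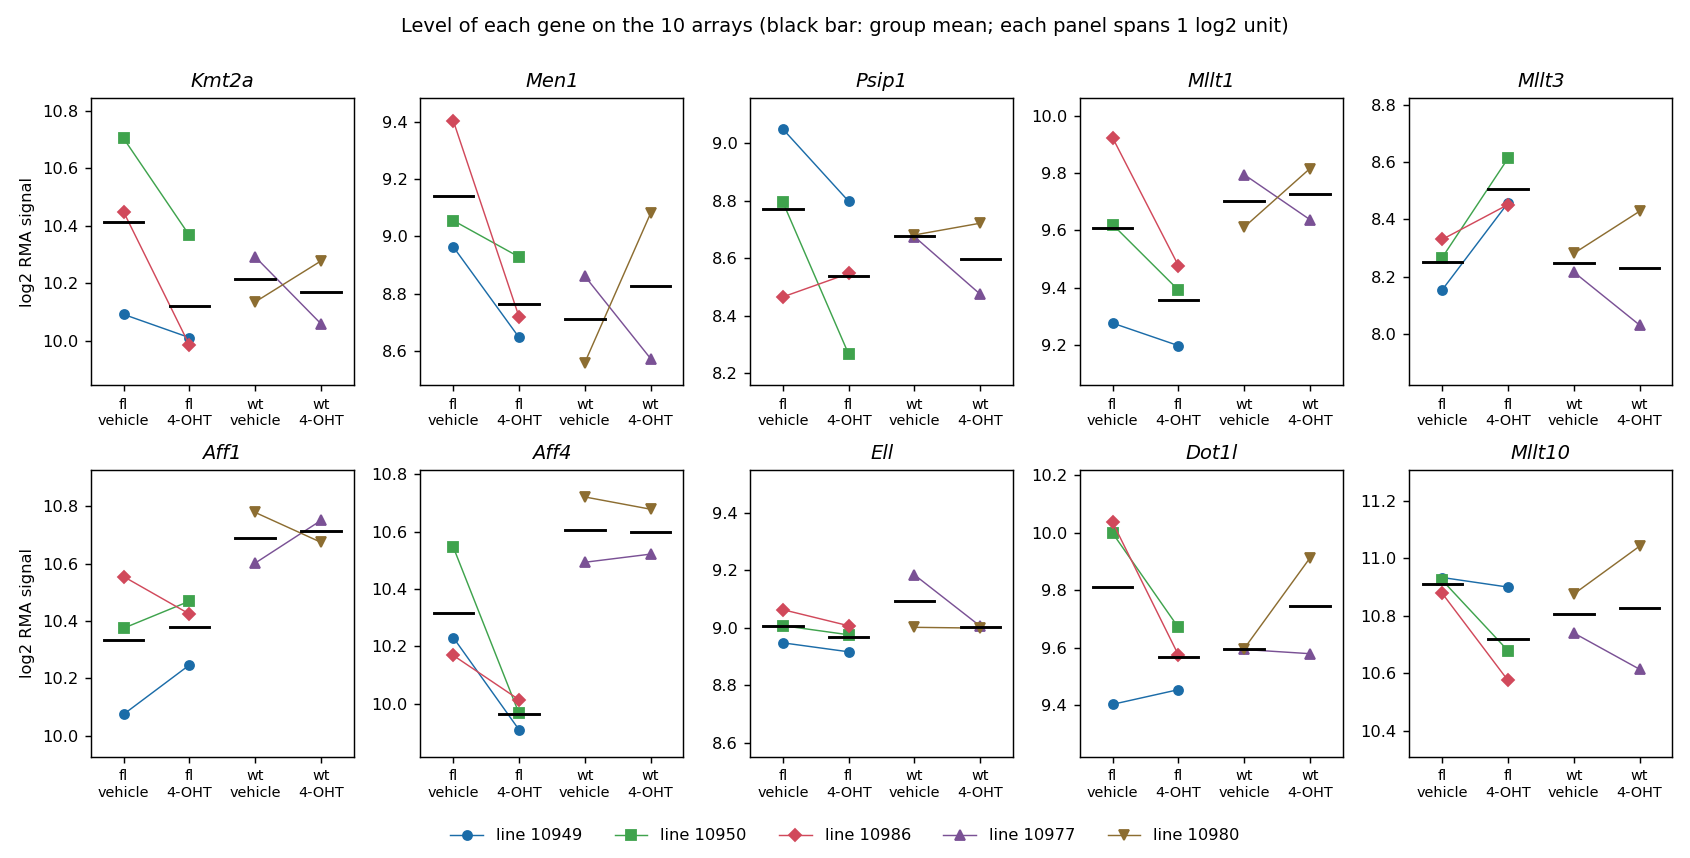
Log2 RMA signal of the 10 genes on the 10 arrays, 1 panel per gene, by group, with points joined within a line and black bars at group means. The fl 4-OHT arrays of Aff4 (9.91 to 10.01) lie below all other arrays of that gene, while for most genes the groups overlap and both wt lines move in opposite directions.

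Since Zfx encodes a DNA-binding protein, the promoters of the 10 genes were searched for AGGCCT, the core of the motif known for ZFX, which reads the same on both strands. RefSeq promoters (GRCm38.p6, from 250 bases before to 50 after each start) were at hand for 9 of the 10 genes, 15 windows in all. In each of the 9, the window richest in CpG dinucleotides held 16 to 49, above the median of 7 over all 32851 single promoters. Other windows of Mllt10 (6 and 7) and Mllt3 (4) did not exceed that median. The share of all genes with a richest window above it was not computed. The letters AGGCCT stood in 1 of the 15 windows, that of an Mllt10 start, beginning 53 bases before it, and in 10.3% of all promoters. A match describes these letters and no binding was measured. The 120 bases before the start are shown for that Mllt10 window, with the match in capitals, for Aff4, one of the 2 members whose fl 4-OHT arrays lay wholly below the fl vehicle arrays, and for Mllt3, the one whose fl 4-OHT arrays lay wholly above. The Aff4 and Mllt3 windows hold no match. They lie at chr2:18064465-18064584 (plus strand), chr11:53350647-53350766 (plus strand) and chr4:88033408-88033527 (minus strand).
Mllt10: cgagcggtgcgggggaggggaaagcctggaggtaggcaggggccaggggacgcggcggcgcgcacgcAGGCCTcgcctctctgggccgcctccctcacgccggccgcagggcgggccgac
Aff4: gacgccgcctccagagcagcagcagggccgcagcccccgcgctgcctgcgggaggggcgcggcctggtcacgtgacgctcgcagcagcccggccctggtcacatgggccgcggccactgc
Mllt3: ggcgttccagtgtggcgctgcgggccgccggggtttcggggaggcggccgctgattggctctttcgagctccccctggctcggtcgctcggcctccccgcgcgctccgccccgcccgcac

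Kmt2a encodes MLL, whose amino-terminal part is carried in the fusion. Its log2 level on the fl vehicle arrays was 10.09, 10.70 and 10.45 in lines 10949, 10950 and 10986, and on the fl 4-OHT arrays 10.01, 10.37 and 9.98. The wt arrays of lines 10977 and 10980 stood at 10.29 and 10.13 with vehicle and at 10.06 and 10.28 with 4-OHT. The groups overlapped, and line 10950 was the highest fl line under both treatments. The fl change was -0.29 (SE 0.12, 95% interval -0.59 to -0.00, limma adjusted p = 0.403, lower in 3 of 3 lines), and the wt change was -0.05 (SE 0.15). Whether the probe sets of Kmt2a and Mllt3 also read the fusion transcript is not stated there. Their levels therefore cannot be assigned to the unfused genes alone.

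Men1 encodes menin, which holds MLL and its fusions on chromatin. It stood at 8.96, 9.06 and 9.40 on the vehicle arrays of lines 10949, 10950 and 10986 and at 8.65, 8.93 and 8.72 on their 4-OHT arrays. Every fl 4-OHT array was below every fl vehicle array, as for 7.27% of all genes tested. The fl change of -0.38 (SE 0.18, 95% interval -0.80 to 0.05, limma adjusted p = 0.474) was largest in line 10986 at -0.68, against -0.32 and -0.13 in lines 10949 and 10950. That line's vehicle array, which stood apart, held the highest level of all 10 arrays for Men1, Mllt1 and Dot1l, as for 27.1% of all genes tested, and the lowest for 0 of the 10 members, against 26.1% of all genes. Without line 10986 the Men1 change was -0.22 (limma adjusted p = 0.557). In wt line 10977 Men1 was 8.86 with vehicle and 8.57 with 4-OHT, and in line 10980 it was 8.56 and 9.08, changes of -0.29 and 0.52 in opposite directions.

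Psip1 encodes LEDGF, the chromatin tether that menin binds together with MLL. It was 9.05, 8.79 and 8.47 on the fl vehicle arrays and 8.80, 8.27 and 8.55 on the fl 4-OHT arrays, in the same line order. Lines 10949 and 10950 were lower with 4-OHT, by -0.25 and -0.53, and line 10986 was higher by 0.08. The wt arrays lay between 8.47 and 8.72, within the range of the fl arrays. The fl change was -0.23 (SE 0.14, limma adjusted p = 0.582). Without line 10950 it was -0.085, and without line 10986 it was -0.39.

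Mllt1 and Mllt3, the relatives ENL and AF9, differed in the direction of their fl values. Mllt1 was 9.28, 9.62 and 9.92 with vehicle and 9.20, 9.39 and 9.48 with 4-OHT in lines 10949, 10950 and 10986, lower in each line but overlapping between the groups. Its change was -0.25 (SE 0.12, 95% interval -0.54 to 0.04, limma adjusted p = 0.476), and -0.15 without line 10986. With the vehicle array of that line alone left out and no block, the Mllt1 change was -0.093. Mllt3 was 8.15, 8.27 and 8.33 with vehicle and 8.46, 8.61 and 8.45 with 4-OHT. It was the member with every fl 4-OHT array above every fl vehicle array, as for 4.55% of all genes tested, and after quantile normalization that separation was lost. Its change was 0.26 (SE 0.11, 95% interval -0.00 to 0.52, limma adjusted p = 0.414). The wt arrays of Mllt3 ran from 8.03 to 8.43 and overlapped both fl groups, and those of Mllt1 from 9.61 to 9.82. Whether both genes differ from each other in their response was not tested.

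Aff4 encodes the scaffold of the super elongation complex, which releases paused RNA polymerase II. Its levels were 10.23, 10.55 and 10.17 on the fl vehicle arrays and 9.91, 9.97 and 10.01 on the fl 4-OHT arrays. The wt lines 10977 and 10980 had 10.49 and 10.72 with vehicle and 10.52 and 10.68 with 4-OHT. Thus the fl 4-OHT arrays were the lowest 3 of the 10, and the wt arrays of either treatment differed by at most 0.04 within a line. The fl change was -0.35 (SE 0.11, 95% interval -0.62 to -0.09), a ratio of 0.784, with -0.32, -0.58 and -0.15 in lines 10949, 10950 and 10986. Its limma adjusted p was 0.268, the smallest of the 10 genes, and ranged from 0.0619 to 0.513 over the alternatives. Without line 10986 the change was -0.45 (limma adjusted p = 0.0619). The wt change was -0.01 (SE 0.14), and fl minus wt came to -0.34 (SE 0.18, 95% interval -0.77 to 0.08, limma adjusted p = 0.878).

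Aff1 encodes AF4, a scaffold related to AFF4 and the partner of MLL in many infant lymphoid leukaemias. In the fl lines it was 10.07, 10.37 and 10.55 with vehicle and 10.25, 10.47 and 10.42 with 4-OHT, and in the wt lines 10.60 and 10.78 with vehicle and 10.75 and 10.67 with 4-OHT. All 4 wt arrays were thus above all 6 fl arrays, as for 3.58% of all genes tested, while 2.75% had all fl arrays above and 0 of the 10 members did. After quantile normalization the Aff1 arrays overlapped. Its fl changes of 0.17, 0.09 and -0.13 in lines 10949, 10950 and 10986 had no common direction, and the mean change was 0.05 (SE 0.11, limma adjusted p = 0.975). The dimmer Aff1 probe set, at 7.34 to 7.74 on the fl arrays and 7.87 to 8.28 on the wt arrays, also placed the wt lines higher. It differed in sign from the brighter one in line 10986, where it gave 0.41, and in wt line 10977, at -0.02 against 0.15. Unlike the brighter one, it was higher with 4-OHT in each fl line (0.18, 0.16 and 0.41). In both wt lines it was lower (-0.02 in line 10977 and -0.24 in line 10980).

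Ell encodes an elongation factor of the same complex and varied least of the 10 genes. All its arrays lay between 8.92 and 9.18, an SD of 0.07 over the 10 arrays, against a median SD of 0.17 over all genes tested. Its fl change was -0.04 (SE 0.09, 95% interval -0.26 to 0.18, limma adjusted p = 0.972), with -0.03, -0.03 and -0.06 in the 3 lines. The SDs of the other 9 genes ran up to 0.30, for Aff4.

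Dot1l encodes the H3K79 methyltransferase, whose mark lies on transcribed genes. It was 9.40, 10.00 and 10.04 on the fl vehicle arrays and 9.45, 9.67 and 9.57 on the fl 4-OHT arrays. Line 10949 started lowest and did not follow the others: the changes were 0.05 in that line and -0.33 and -0.46 in lines 10950 and 10986. The wt vehicle arrays were alike at 9.59 and 9.60, and with 4-OHT line 10980 reached 9.91 while line 10977 stayed at 9.58. The fl change was -0.25 (SE 0.13, limma adjusted p = 0.538), with -0.40 when line 10949 was left out and -0.14 when line 10986 was. The fl change minus the wt change was -0.40 (SE 0.21, 95% interval -0.90 to 0.10, limma adjusted p = 0.889).

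Mllt10 encodes AF10, which binds DOT1L and supports higher degrees of H3K79 methylation. Its 3 fl vehicle arrays were close together, at 10.93, 10.92 and 10.88, and the fl 4-OHT arrays spread to 10.90, 10.68 and 10.57. Line 10949 hardly differed between treatments, at -0.03, while lines 10950 and 10986 had -0.25 and -0.30. The wt arrays ran from 10.61 to 11.04 and covered almost all of the fl range. The fl change was -0.19 (SE 0.11, limma adjusted p = 0.561).

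**Figure D2:**
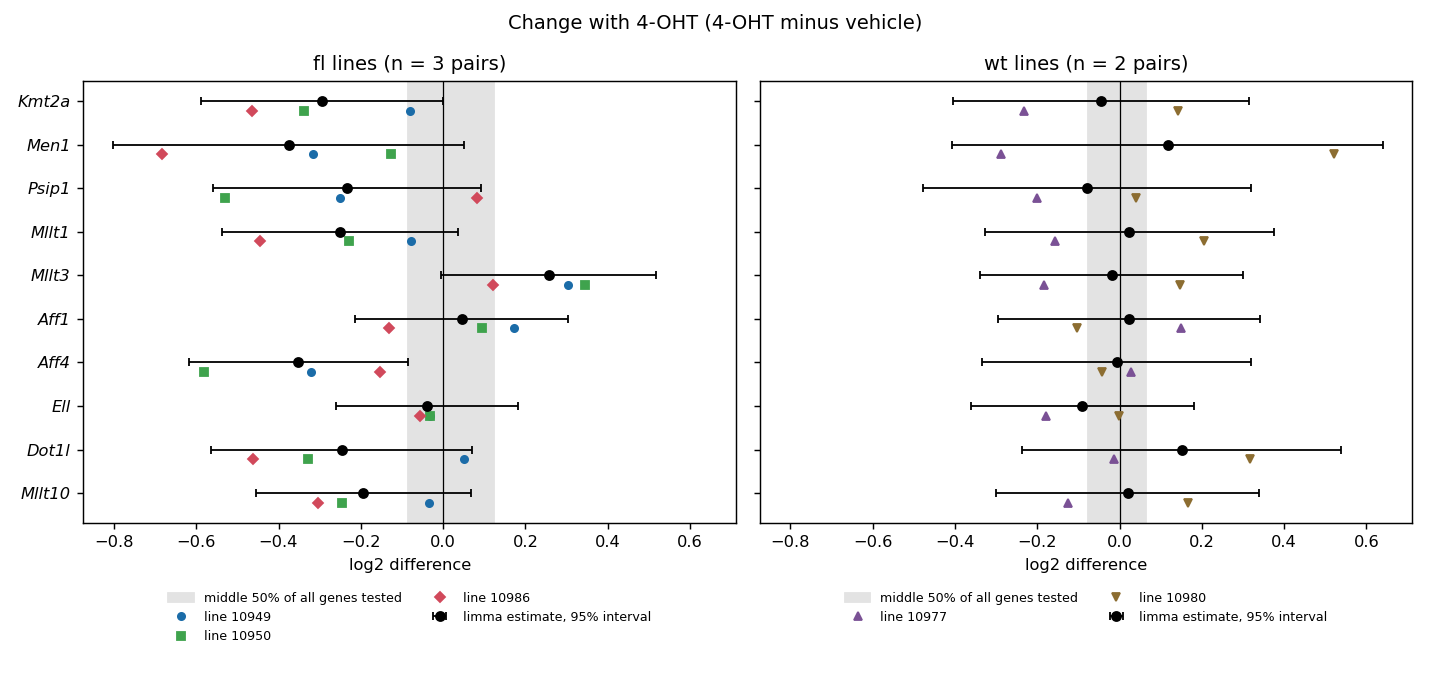
Log2 change with 4-OHT for each gene in the fl lines (left, n = 3 pairs) and the wt lines (right, n = 2 pairs). Black points and bars are limma estimates with 95% intervals, coloured points single lines and the grey band the middle 50% of all genes tested. The fl estimates run from -0.38 (Men1) to 0.26 (Mllt3), and the wt estimates from -0.09 to 0.15, with the wt lines on opposite sides of 0 for 9 of the 10 genes.

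The wt lines give the background of 4-OHT and Cre activity. In limma 0% of all genes and 0 of the 10 passed there, and the adjusted p was 0.9999 for each of the 10. An unadjusted p under 0.05 was found for 0 of the 10, beside 0.147% of all genes. This test shares 1 estimate of the spread with the fl lines, line 10986 included. Without line 10986, 465 of 15662 genes had an unadjusted limma p under 0.05 in the wt lines, against 23 with all lines, and 0 passed. The lack of passing genes therefore does not show that 4-OHT and Cre had no effect there. The estimates ran from -0.09 for Ell to 0.15 for Dot1l, but each averages lines that moved apart. In line 10977, 8 of the 10 genes were lower with 4-OHT (median -0.17), and in line 10980, 7 of the 10 were higher (median 0.14). For 9 of the 10 genes, all but Ell, the lines moved in opposite directions, as did 51.2% of all genes tested. The medians of the 10 in fl lines 10949, 10950 and 10986 were -0.06, -0.24 and -0.23, so wt line 10977 lay within their range and line 10980 outside it. The wt 4-OHT arrays lay wholly above the wt vehicle arrays for 0 of the 10 and wholly below for 0, against 14.3% and 12.4% of all genes. For none of the 10, at the probe set used, did all fl lines move one way and both wt lines the other. Of all genes tested, 8.07% did, and so did the dimmer Aff1 probe set.

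Tested directly, the difference of the 4-OHT effect between fl and wt lines passed for 0% of all genes and for 0 of the 10 in limma. At an unadjusted p under 0.05 were 0 of the 10, beside 5.82% of all genes. The estimates ran from -0.49 for Men1 (SE 0.28, 95% interval -1.17 to 0.18, limma adjusted p = 0.908), which was -0.90 without line 10977 and -0.088 without line 10980, to 0.28 for Mllt3 (SE 0.17, 95% interval -0.14 to 0.69, limma adjusted p = 0.908), which was 0.11 without line 10977 and 0.44 without line 10980. The narrowest interval was that of Ell, from -0.30 to 0.40, and the widest that of Men1.

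Between genotypes, the fl lines had lower Aff4 and Aff1 than the wt lines under both treatments, without passing the test. These comparisons use the same arrays as those above. Under 4-OHT, the Aff4 level was 9.96 ± 0.05 (SD, n = 3) in the fl lines and 10.60 ± 0.11 (SD, n = 2) in the wt lines. The difference of -0.64 (SE 0.13, 95% interval -0.94 to -0.33) had a limma adjusted p of 0.0815, with a range of 0.0674 to 0.848 over the alternatives. Under vehicle, Aff4 was 10.32 ± 0.20 (SD, n = 3) against 10.61 ± 0.16 (SD, n = 2), a difference of -0.29 (SE 0.13, limma adjusted p = 0.513), and the groups overlapped. The order of Aff4 was therefore wt vehicle, wt 4-OHT, fl vehicle and fl 4-OHT, and of these neighbours the fl vehicle and fl 4-OHT arrays alone did not overlap.

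Aff1 was 10.38 ± 0.12 (SD, n = 3) in the fl lines and 10.71 ± 0.05 (SD, n = 2) in the wt lines under 4-OHT, a difference of -0.33 (SE 0.14, limma adjusted p = 0.446). Under vehicle the difference was -0.36 (SE 0.14, limma adjusted p = 0.499). Mllt1 differed by -0.37 under 4-OHT (SE 0.18, limma adjusted p = 0.524) and by -0.10 under vehicle (SE 0.18). Men1 showed the largest positive estimate under vehicle, 0.43 (SE 0.20, 95% interval -0.02 to 0.88, limma adjusted p = 0.516), with 9.14 ± 0.23 (SD, n = 3) in the fl and 8.71 ± 0.21 (SD, n = 2) in the wt lines, and under 4-OHT it was -0.06 (SE 0.20). Mllt3 differed by 0.28 under 4-OHT (SE 0.13, limma adjusted p = 0.501; 0.079 to 0.48 when 1 line was left out) and by 0.00 under vehicle (SE 0.13).

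In limma, 0.645% of all genes passed between genotypes under 4-OHT and 0.0192% under vehicle, against 0 of the 10 in each. At an unadjusted p under 0.05 were 2 of the 10 under 4-OHT, Aff4 and Aff1, beside 10.8% of all genes. Under vehicle it was 1 of the 10, Aff1, beside 9.83% of all genes. Under 4-OHT the fl arrays lay wholly below the wt arrays for Aff4, Aff1 and Mllt1, which 14.2% of all genes did, and wholly above for Mllt3, which 12.6% did. Under vehicle they lay wholly above for Men1 and Mllt10 (18.6% of all genes) and wholly below for Aff1 (12.1%). With arrays centred, 1 gene lay above and 2 below under vehicle, and after quantile normalization 0 lay below. The Mllt3 separation under 4-OHT was absent with arrays centred on their median and after quantile normalization.

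**Figure D3:**
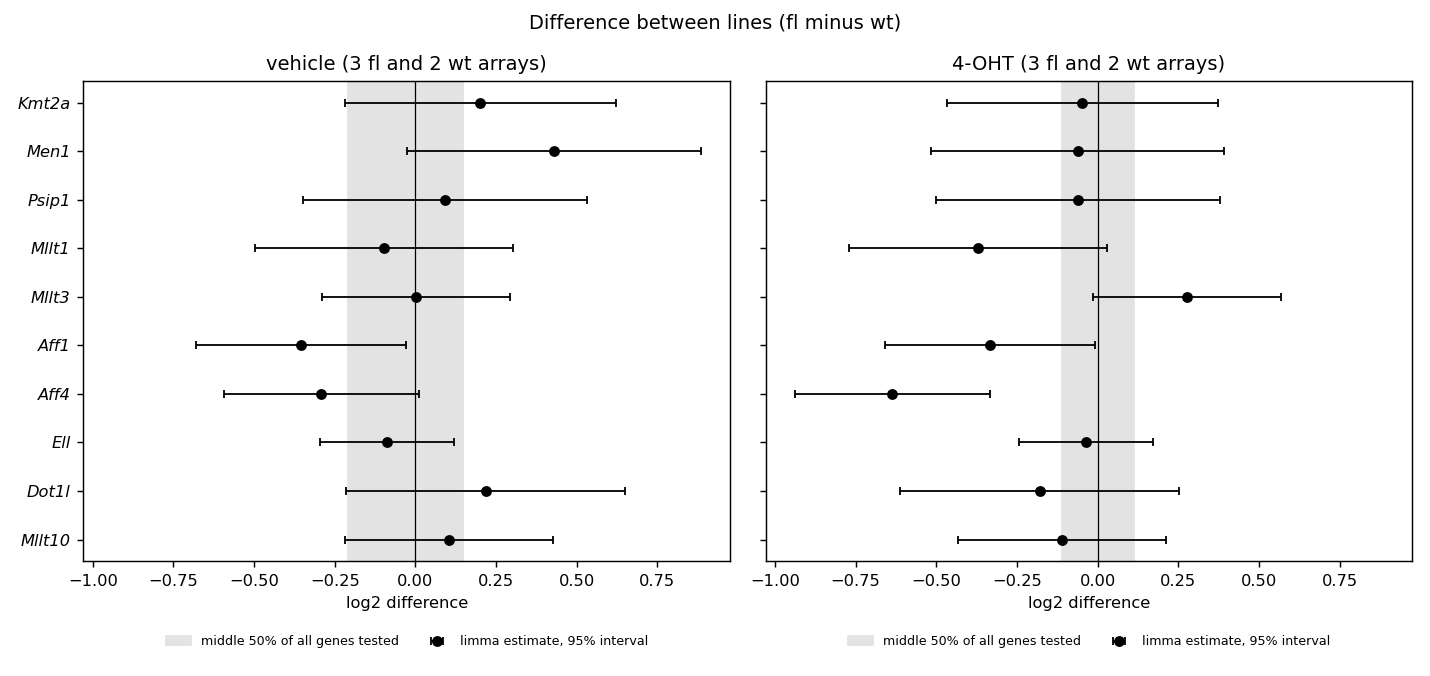
Log2 difference between fl and wt lines (fl minus wt) for each gene under vehicle (left) and 4-OHT (right), as limma estimates with 95% intervals, and the middle 50% of all genes tested in grey. Aff4 under 4-OHT lies farthest from 0 at -0.64, and Aff1 is near -0.3 in both panels (-0.36 and -0.33).

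Among neighbouring complexes, no gene passed in the fl lines either. Of 64 genes on 5 lists, 62 had a named probe set and were tested, and in limma 0 of them rose and 0 fell with 4-OHT, while 17 of the 62, or 27.4%, had an unadjusted p under 0.05, beside 12.3% of all genes. The other KMT2 methyltransferase complex genes, which methylate H3K4, had a median change of -0.11, with 9 of 16 lower. Ncoa6, a coactivator subunit of the KMT2C and KMT2D complexes, had a change of -0.42 (SE 0.10, limma adjusted p = 0.173), and the methyltransferase gene Kmt2d by -0.42 (SE 0.13, limma adjusted p = 0.267). Both were lower in each fl line, and the difference of the effect between fl and wt lines did not pass for either (limma adjusted p = 0.726 and 0.866).

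Other genes of the super elongation complex and its kinase P-TEFb had a median of -0.02, with 7 of 12 lower. Hexim1, whose protein holds P-TEFb inactive, ran from 9.05 to 10.09 in fl cells with vehicle, from 8.28 to 9.04 in fl cells with 4-OHT and from 8.35 to 8.58 in wt cells. The change was -1.05 (SE 0.18, limma adjusted p = 0.0975), with -0.78, -0.76 and -1.61 in lines 10949, 10950 and 10986. Aff2, a further AF4 family gene, had -0.45 (SE 0.15, limma adjusted p = 0.292). In the PAF1 complex, which travels with RNA polymerase II and binds MLL, the median was 0.16 with 4 of 6 higher. Its subunit gene Leo1 had 0.35 (SE 0.10, limma adjusted p = 0.232), and Wdr61 had 0.56 (SE 0.28), with 1.52 in line 10986 and -0.06 and 0.21 in lines 10949 and 10950, or 0.07 without line 10986.

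A list of factors with a YEATS domain, factors that bind AF9 or ENL and Polycomb-related genes had a median of -0.04 over 7 genes. The corepressor gene Bcor, whose protein binds AF9, had a change of -0.64 (SE 0.11, limma adjusted p = 0.0878), and the Polycomb ring finger gene Rnf2 one of 0.40 (SE 0.20), or 0.08 without line 10986. Other genes known as MLL fusion partners had a median of 0.09, with 15 of 21 higher. Lpp, which encodes a focal adhesion protein, had a change of 1.06 (SE 0.14, limma adjusted p = 0.0625), and Gas7, a growth arrest gene, one of 0.80 (SE 0.13, limma adjusted p = 0.0856). Without line 10986, where 440 of all 15662 genes passed against 24 with all lines, Hexim1 (-0.77), Bcor (-0.60), Lpp (0.96) and Gas7 (0.75) passed. Lpp passed also after quantile normalization and with a trended prior. Over the alternatives the limma adjusted p ranged from 0.0144 to 0.326 for Hexim1, from 0.0334 to 0.708 for Bcor, from 0.0162 to 0.317 for Lpp and from 0.0316 to 0.349 for Gas7. The difference of the 4-OHT effect between fl and wt lines did not pass for any of these 4 (limma adjusted p = 0.563 to 0.707).

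**Figure D4:**
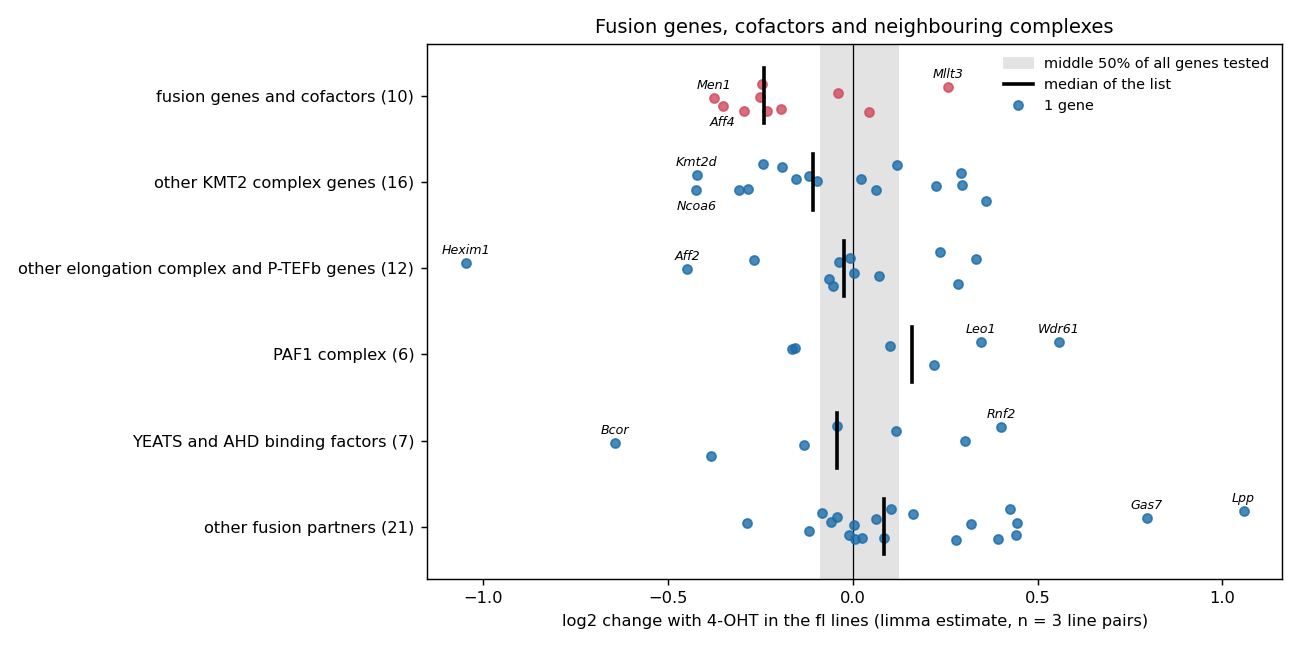
Log2 change with 4-OHT in the fl lines (limma estimates, n = 3 line pairs) for the 10 genes (red) and for each tested gene of 5 neighbouring lists (blue), with black bars at list medians and the middle 50% of all genes tested in grey. The median is -0.24 for the 10 genes and between -0.11 and 0.16 for the other lists, and Hexim1 (-1.05) and Lpp (1.06) lie farthest out.

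Beside 0.153% of all genes that passed in the fl lines, 3 of 20 markers of mature myeloid cells rose with 4-OHT and 17 did not pass. Of the 11 monocyte and macrophage markers among them, 9 were higher and 2 lower, with a median change of 0.61, and 8 had an unadjusted p under 0.05, beside 12.3% of all genes. Irf8 (0.93, SE 0.10, limma adjusted p = 0.0373) and Ctss (1.40, SE 0.16, limma adjusted p = 0.046) rose. The log2 of their summed signal was 12.58 to 13.21 on the fl vehicle arrays, 13.22 to 13.94 on the fl 4-OHT arrays, 13.32 to 13.53 on the wt vehicle arrays and 13.02 to 13.74 on the wt 4-OHT arrays. Of the 9 neutrophil markers, Mmp8 rose (2.56, SE 0.19, limma adjusted p = 0.0143). The median change of that list was 0.13, with 7 higher, 2 lower and 2 at an unadjusted p under 0.05, and its summed level was 11.47 to 12.34, 12.19 to 12.92, 12.44 to 13.65 and 11.77 to 13.86 in the same group order. Irf8, Ctss and Mmp8 each fell short of the threshold without line 10949 or 10950, where 0 of all genes passed. For these 3 genes the difference of the 4-OHT effect between fl and wt lines did not pass (limma adjusted p = 0.563, 0.563 and 0.284). In the fl comparison they passed in 5, 4 and 8 of 16 alternatives. Among the 16, the fits without line 10977 and without line 10980 are identical for the fl change, and both leave its estimate as it was. Of 8 leukaemia and progenitor markers 0 passed, with a median of 0.04 and 2 at an unadjusted p under 0.05. Mast cell and basophil, erythroid and megakaryocyte, and lymphoid markers had medians of -0.01, 0.01 and 0.08, with 0 passing and 1, 0 and 1 at an unadjusted p under 0.05, and Cma1, Pf4, Cd3g, Cd79a, Ms4a1 and Cd4 were below the level filter. The part of these cell markers in the values of the 10 genes was not tested.

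The 3 most variable of the 10 genes over the arrays were Aff4, Men1 and Mllt1. The genes tested whose levels followed theirs most closely are given as a description over 10 arrays, which share 5 lines. For Aff4 they were Ttc7b, Zmynd11 and Cibar1 (Pearson r = 0.97, 0.97 and 0.96), for Men1 Lss, Tmem150c and Apba3 (0.95, 0.95 and 0.94) and for Mllt1 Gsk3a, Setd1b and Add1 (0.98, 0.97 and 0.97). Of these, Setd1b encodes an H3K4 methyltransferase and belongs to the KMT2 list. Among the 10 genes themselves, Kmt2a and Dot1l had the highest correlation over the arrays, at 0.82.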

How the data were processed

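RNA of c-Kit-positive cells was labelled with biotin and hybridised to 1-colour arrays. The deposited intensity values, 1 per probe set and array, were made by the authors with RMA, per the submitters' processing notes; the sources used here do not state the software. Of 35556 probe sets, 21789 carry 1 gene symbol in the platform annotation, 1621 several, and 12146 are not listed there. Log2 was taken, the probe set with the highest mean stood for a gene, and genes were tested if that mean reached 6.23, the 25th percentile over every probe set. Levels of different probe sets are not comparable with each other.

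Changes with 4-OHT were tested with limma 3.58.1 (R 4.3.3) on all 10 arrays with the line as a block and a 4-OHT term for each genotype (3 residual degrees of freedom). Genotypes were compared with the line as a random block (statmod 1.5.0, correlation 0.165). Tests were two-sided, with Benjamini-Hochberg adjustment over 15662 genes and a threshold of 0.05; intervals are unadjusted and cover 95%. The fit was tested on simulated data that gave each gene the same spread on all arrays. No simulated array stood apart as the vehicle array of line 10986 did. The line pairs the arrays because each line was cultured both ways. Deviations of a line's arrays from their group means correlated at 0.78 in line 10949, 0.22 in 10950, -0.06 in 10986 and 0.43 in both wt lines. With 2 arrays per wt group the deviations mirror each other, so both wt lines share 1 value by construction. Arrays have no read depth, so their number limits the precision. The genes and lists were chosen with earlier results of these data known. The 10 genes were always named; from each neighbouring list, passing genes or else the 2 with the largest fl change were named, and from the marker lists the passing genes.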

Additional observations from a re-analysis of the deposited data

How the results depend on the processing

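In each of 16 alternatives, 0 of the 10 genes passed in any of the 5 comparisons, with no replicate block as well as with it. Of 770 recomputed changes of the 10 genes, 733 kept their direction and side of the threshold and 37 changed sign, each below the threshold. Where an alternative changed only the block, the prior or the level filter, the estimate stayed the same, so its direction could not turn. The same held for a genotype's own change with 4-OHT when a line of the other genotype was left out. The count of 733 therefore includes many changes whose direction was fixed in advance. Quantile normalization turned Mllt3 (0.020) and Aff4 (0.019) in the wt lines, the difference of the effect for Aff1 (-0.046) and Ell (-0.035), and fl minus wt for Mllt1 (0.034) and Ell (0.036) under vehicle and Ell (0.0012) under 4-OHT. Averaging probe sets turned Aff1 in the wt lines (-0.056). Centring (-0.043), and no replicate block without the vehicle array of line 10986 (-0.038), turned Mllt3 between genotypes under vehicle. Leaving out 1 line turned, in the fl lines, Aff1 (-0.018 to 0.13). In the wt lines it left 1 line and gave Aff1 -0.10 to 0.15, Aff4 -0.043 to 0.028, Dot1l -0.015 to 0.32, Kmt2a -0.23 to 0.14, Men1 -0.29 to 0.52, Mllt1 -0.16 to 0.20, Mllt10 -0.13 to 0.17, Mllt3 -0.18 to 0.15 and Psip1 -0.20 to 0.041. The difference of the effect ran from -0.10 to 0.15 for Aff1 and from -0.037 to 0.14 for Ell. Fl minus wt under vehicle ran from -0.18 to 0.0044 for Ell, -0.25 to 0.069 for Mllt1, -0.038 to 0.050 for Mllt3 and -0.048 to 0.24 for Psip1. Under 4-OHT it ran from -0.17 to 0.062 for Kmt2a, -0.31 to 0.19 for Men1, -0.32 to 0.10 for Mllt10 and -0.19 to 0.074 for Psip1. Of the neighbouring complex genes, 1 passed in the fl lines after quantile normalization, 1 with a trended prior, and 0 to 4 without 1 line, the 4 without line 10986. Over all genes, the count past the threshold was 24 in the fl lines (440 without line 10986, 0 without any other single line, 28 with no replicate block), 101 between genotypes under 4-OHT (0 without line 10980, up to 115 over the alternatives), 3 under vehicle (0 to 15) and 0 for the difference of the effect (20 without line 10986). The cause was not tested.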
